A study of Mus musculus with 8 samples.

Results

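The genes described here act in G2, mitosis and cytokinesis, the steps in which a cell that has copied its DNA condenses its chromosomes, pulls them apart and divides. A list of 48 such genes was followed in CD4 single-positive (CD4SP) thymocytes, of which 45 were represented by a probe set annotated with exactly 1 gene symbol, out of 22180 genes so represented in all. The list is one of function, not of measured values, although earlier results of these data were known when it was drawn up. Ccnb1, Ccnf and Ncapg had no such probe set and have no value here. Of the 45, 43 were bright enough to be tested, with a mean over all arrays at or above a log2 value of 5.56, the median of all probe sets, and Ttk and Kif4 fell below it.

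The study compared thymocytes of 2 genotypes, wild type (WT) and knockout of Pggt1b (KO, labelled Pggt1b_KO), both on a C57BL/6 background. Pggt1b encodes the beta subunit of geranylgeranyl transferase I, which attaches a lipid of the mevalonate pathway to small GTPases, and the study asked how this modification bears on the exit of thymocytes from the thymus. CD4SP thymocytes, the CD4-lineage cells that have passed selection, were sorted from the thymus, and RNA of each of 4 WT and 4 KO samples was hybridised to 1 array. The sources used here do not give the age of the mice, how and in which cells Pggt1b was deleted, or whether the samples came from separate animals. P-values therefore measure only the spread between these samples. All values are log2 signals, a difference is KO minus WT on that scale, ± SE is the standard error of the fit, and genes with an adjusted p under 0.05 are called changed (limma, two-sided, Benjamini-Hochberg over all 11585 genes tested). Every adjusted p below comes from that fit unless another setting is named.

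Transcripts of mitotic genes accumulate late in the cell cycle and are low in resting cells. In resting cells the DREAM complex, built on the MuvB core, represses their promoters. In cycling cells the same core joins B-MYB and FOXM1 and activates them, and a short promoter element known as the cell cycle genes homology region (CHR) serves as its landing site. Most cells of the CD4SP stage are not dividing, and the mature ones can divide before they leave the thymus.

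The promoters show what these genes share beyond their function. The letters TTTGAA or TTCGAA, the core of the CHR, were searched on both strands of RefSeq promoters (GRCm38.p6, from 250 bases before to 50 bases after the annotated start). The table held 43 promoters of 40 of the 48 genes. Within the window from 100 bases before to 50 after the start, 31 of these 43 promoters (72.1%) held the motif, against 8.59% of all 32851 promoters in the table. Promoters of further mitotic genes held it in 55.2% of cases (32 of 58) and those of DNA replication and G1/S genes in 13.8% (4 of 29). CCAAT, the core of the NF-Y binding motif, whose matches can share end letters with those of the CHR, was found on either strand in 32 of the 43 promoters (74.4%) within the full window, against 37.4% of all promoters. It was nearly as common in promoters of further mitotic genes (40 of 58, 69%) and of DNA replication and G1/S genes (20 of 29, 69%). These are matches of letters, which do not show binding. These 4 examples are shown because they belong to the members with the lowest p in the comparison below among those that hold the motif, each from 150 bases before to 50 after the annotated start, 5′ to 3′, with the CHR letters of either strand in capitals.
Kif23 (chr9:61946750-61946949, minus strand): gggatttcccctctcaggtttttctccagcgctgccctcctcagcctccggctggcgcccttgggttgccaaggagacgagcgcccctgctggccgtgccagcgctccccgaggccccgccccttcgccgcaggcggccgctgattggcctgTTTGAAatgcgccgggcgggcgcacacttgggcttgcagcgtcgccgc
Smc2 (chr4:52439071-52439270, plus strand): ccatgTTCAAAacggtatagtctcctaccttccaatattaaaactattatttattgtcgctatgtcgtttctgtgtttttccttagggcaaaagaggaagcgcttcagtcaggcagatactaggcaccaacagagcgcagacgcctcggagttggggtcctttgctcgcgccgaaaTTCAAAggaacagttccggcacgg
Cdk1 (chr10:69352863-69353062, minus strand): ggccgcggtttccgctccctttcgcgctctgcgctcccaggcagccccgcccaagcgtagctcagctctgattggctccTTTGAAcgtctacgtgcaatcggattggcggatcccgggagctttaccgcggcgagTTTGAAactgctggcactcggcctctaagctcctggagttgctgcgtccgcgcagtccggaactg
Ect2 (chr3:27153829-27154028, minus strand): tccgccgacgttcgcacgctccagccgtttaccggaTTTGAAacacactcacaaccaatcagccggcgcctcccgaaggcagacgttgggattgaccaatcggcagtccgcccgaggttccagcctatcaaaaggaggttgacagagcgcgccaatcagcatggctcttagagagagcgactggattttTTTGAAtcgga
Among the promoters of genes that are called lower below, 13 of 16 (81.2%) held the motif near the start, and among those of tested members not called lower 14 of 22 (63.6%). The motif thus occurred in members on either side of the threshold.

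Arrays and sort were checked first. Pggt1b stood at 8.35, 8.38, 8.29 and 8.36 in WT replicates 1 to 4 and at 7.89, 7.57, 7.69 and 7.86 in KO replicates 1 to 4, a difference of -0.59 ± 0.0723 SE (adjusted p = 0.00141). None of 7 measured markers of CD4SP T cells passed the threshold (limma, 0 also at an unadjusted p under 0.05), and Cd4 itself stood between 12.19 and 12.34 in all arrays. Of the B cell markers 1 of 5 measured passed the intensity filter, of the myeloid and dendritic markers 2 of 8, and of the thymic epithelial markers 2 of 5. The stress gene Hspa1a varied widely, between 4.84 and 8.00 in WT and between 4.27 and 9.94 in KO, and did not separate the genotypes.

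As a group the mitotic genes were lower in KO. In RNA from a sorted population, fewer dividing cells and less RNA per cell cannot be told apart. Of the 43 tested, 15 were called lower (34.9%), against 8.53% of all genes tested, and 1 was called higher, against 4.45%. The difference was below 0 in 40 of the 43 (93.0%, against 59.1% of all genes tested), and its median was -0.33, beside -0.03 over all genes tested. The falls that were called ran from 1.15-fold for Fzr1 to 1.75-fold for Kif11. In 7 of the 43 the genotypes did not overlap and KO was lower, 16.3% against 13.5% of all genes, a share near the background. In Smc4 the genotypes did not overlap and KO was higher. Arrays of the same genotype spread widely in these genes, as described below.

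The size of the count depended on which arrays were used. With 1 WT array left out it was 6 (replicate 1), 2 (replicate 2 or 3) or 26 (replicate 4). With 1 KO array left out it was 4 (replicate 1), 3 (replicate 2 or 3) or 21 (replicate 4). Over all genes tested, 4.26% and 5.17% were called lower without WT replicate 2 and 3, so that the members' 4.65% there was near the background. The members' 6.98% without KO replicate 2 or 3 was also near it, at 5.03% and 5.28% of all genes. Without WT replicate 1 the members' share was 14% against 8.16%, and without KO replicate 1 it was 9.3% against 4.41%. Without WT replicate 4 the members' share was 60.5% against 6.72%, and without KO replicate 4 it was 48.8% against 6.24%. The median difference of the members stayed between -0.44 and -0.27 in these 8 fits. Under other scalings 10 members were called lower with each array centred on its median over tested genes (4.73% of all genes lower, and 58.3% of all calls higher, against 34.3% with the values as deposited), 10 after a further quantile normalization (6.25% lower, 49.5% of calls higher) and 21 with centring over all probe sets (11.4% lower, 22.5% of calls higher).

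**Figure D1:**
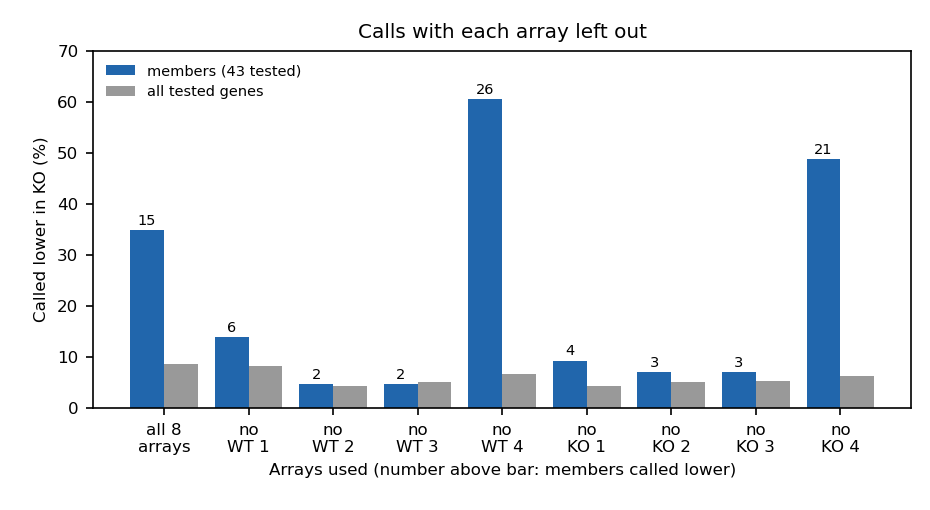
Share of genes called lower in KO (adjusted p under 0.05, y axis in percent) among the 43 tested members (blue, with the number called above each bar) and among all 11585 tested genes (grey), with all 8 arrays and with each array left out in turn (x axis). The members' share is 34.9% with all arrays, rises to 60.5% without WT replicate 4 and falls to 4.65% without WT replicate 2 or 3.

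The engine of mitotic entry is the kinase CDK1 with its cyclins, and FOXM1 is the transcription factor that drives G2/M genes. Cdk1 had WT values of 7.94, 8.12, 8.13 and 7.56 and KO values of 7.16, 6.99, 7.32 and 7.57. It fell 1.59-fold (-0.67 ± 0.149 SE, adjusted p = 0.0189), with KO replicates 1 to 3 below every WT array and KO replicate 4 just above WT replicate 4. Ccnb2, the cyclin B2 partner of CDK1, had WT values of 8.23, 8.36, 8.26 and 7.76 and KO values of 7.52, 7.27, 7.53 and 7.84, a 1.52-fold fall (adjusted p = 0.0256) in which KO replicate 4 again overlapped WT replicate 4. Ccna2, the cyclin of S phase and G2, stood at 8.55, 8.53, 8.59 and 7.64 in WT and 7.48, 7.14, 7.67 and 8.16 in KO, a difference of -0.71 with a 95% confidence interval of -1.27 to -0.16 that was not called (adjusted p = 0.0909). Foxm1 differed by -0.36 (adjusted p = 0.139). Leaving out KO replicate 1 or WT replicate 2 or 3 ended the call of Cdk1 (highest adjusted p 0.0550), and leaving out any of replicates 1 to 3 of either genotype ended that of Ccnb2 (highest 0.0686).

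The spindle pole kinases and the activator TPX2 were lower in their means, and none of the 4 was called. At an unadjusted p under 0.05 (limma) 3 of the 4 were lower, against 2221 of all 11585 genes tested. Tpx2, the microtubule protein that activates Aurora A, stood at 7.12, 6.94, 7.01 and 6.50 in WT and 6.35, 6.23, 6.50 and 6.67 in KO (-0.46 ± 0.137 SE, adjusted p = 0.0562). Aurka, the Aurora A kinase of the spindle poles, stood at 6.97, 7.05, 7.15 and 6.88 in WT and 6.67, 6.64, 6.74 and 7.07 in KO, with KO replicate 4 above WT replicates 1, 2 and 4 (adjusted p = 0.158). Plk1, a kinase needed through mitosis, and Plk4, the kinase of centriole duplication, differed by -0.33 and -0.19, with intervals of -0.65 to -0.01 and -0.44 to 0.07.

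The chromosomal passenger complex, which corrects faulty attachments of chromosomes and guides the cut between daughter cells, had 4 tested members and no call (limma). At an unadjusted p under 0.05 all 4 genes of the complex were lower, against 2221 of all 11585 genes tested. Incenp, its scaffold, stood at 7.02, 7.36, 7.02 and 7.04 in WT and 6.91, 6.76, 6.74 and 6.87 in KO, and here the genotypes did not overlap (adjusted p = 0.0501). Cdca8, which encodes borealin, stood at 6.46, 6.52, 6.34 and 6.16 in WT and 6.07, 6.00, 6.09 and 6.21 in KO, with KO replicate 4 above WT replicate 4 (adjusted p = 0.0553). Aurkb, the kinase of the complex, differed by -0.53 and Birc5, which encodes survivin, by -0.30 (adjusted p = 0.106 and 0.128). In these genes the KO means lay lower, but no adjusted p was under 0.05.

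The spindle assembly checkpoint, which holds anaphase until every chromosome is attached, had 2 called falls among 4 tested genes (50%, against 8.53% of all genes). Bub1, a checkpoint kinase, stood at 6.83, 7.02, 6.70 and 6.32 in WT and at 5.99, 5.72, 5.83 and 6.56 in KO and fell 1.62-fold (-0.69 ± 0.190 SE, adjusted p = 0.0414). Bub1b, which encodes BUBR1 of the inhibitory complex, stood at 6.92, 7.10, 6.77 and 6.56 in WT and 6.36, 5.92, 6.31 and 6.62 in KO and fell 1.45-fold (adjusted p = 0.0430). In both genes KO replicates 1 to 3 lay below all WT arrays and KO replicate 4 above WT replicate 4. Mad2l1, which encodes the checkpoint protein MAD2, differed by -0.22 (adjusted p = 0.0653). Bub3, the WD-repeat partner of BUB1 and BUBR1, differed by -0.08 with an interval of -0.24 to 0.08 (adjusted p = 0.518). Ttk, the MPS1 kinase at the top of the checkpoint, was too dim to be tested, with WT values of 5.54, 6.00, 5.41 and 5.18 and KO values of 4.87, 4.74, 4.85 and 5.64, in which KO replicate 4 lay above WT replicates 1, 3 and 4. Leaving out any of replicates 1 to 3 of either genotype ended both calls (highest adjusted p 0.102 and 0.105), and leaving out replicate 4 of either did not. Both calls also ended after a further quantile normalization (adjusted p = 0.0568 and 0.0595).

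Kinetochore genes, whose products tie chromosomes to microtubules, were lower in 6 of 8 by sign (75%, against 59.1% of all genes tested). Of the 8, 3 were called lower (37.5%, against 8.53% of all genes). Knl1, the scaffold that recruits the BUB proteins, stood at 7.39, 7.42, 7.51 and 7.19 in WT and 7.02, 6.71, 6.92 and 7.22 in KO and fell 1.33-fold (-0.41 ± 0.107 SE, adjusted p = 0.0346). Cenpe, a kinesin that carries chromosomes to the spindle equator, stood at 6.16, 6.26, 6.33 and 6.04 in WT and 5.85, 5.70, 5.97 and 6.00 in KO, a 1.25-fold fall (adjusted p = 0.0351). The genotypes did not overlap for Cenpe or for Spc25, a subunit of the NDC80 complex, at 6.28, 6.40, 6.34 and 6.15 in WT and 5.95, 5.83, 6.05 and 6.15 in KO, which fell 1.23-fold (adjusted p = 0.0361) with KO replicate 4 level with WT replicate 4 to 2 decimals. The other subunits of that complex had differences on both sides of 0, none of them called. Nuf2 and Spc24 differed by -0.53 and -0.34 (adjusted p = 0.101 and 0.0687), whereas Ndc80 itself had a mean 0.14 higher in KO, with values of 7.29, 7.65, 7.36 and 7.25 in WT and 7.44, 7.74, 7.30 and 7.63 in KO that overlapped (adjusted p = 0.452). Cenpa, the histone variant that marks the centromere, stood at 8.34, 8.40, 8.26 and 8.32 in WT and 8.40, 8.47, 8.44 and 8.28 in KO, 0.07 higher in its mean with an interval of -0.06 to 0.19 (adjusted p = 0.481). Cenpf, a late-cycle kinetochore protein, differed by -0.28 (adjusted p = 0.101). None of the 3 calls held when 1 of replicates 1 to 3 of either genotype was left out (highest adjusted p 0.0859 for Knl1, 0.0877 for Cenpe and 0.0927 for Spc25), and all 3 ended with arrays centred over tested genes (0.0522, 0.0601 and 0.0575).

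Spindle motors held the largest fall among the tested members. Kif11, the kinesin that pushes the spindle poles apart, stood at 8.24, 8.36, 8.43 and 7.62 in WT and at 7.15, 7.06, 7.42 and 7.79 in KO and fell 1.75-fold (-0.81 ± 0.197 SE, adjusted p = 0.0278). Its KO replicates 1 to 3 lay below all WT arrays, and KO replicate 4 lay above WT replicate 4. Nusap1, which bundles spindle microtubules, stood at 7.87, 8.15, 8.10 and 7.41 in WT and 7.08, 6.91, 7.30 and 7.88 in KO. Its KO replicate 4 exceeded WT replicates 1 and 4, and it was not called (adjusted p = 0.102, 95% confidence interval -1.07 to -0.11). Kif2c, a kinesin that takes microtubules apart, differed by -0.15 (adjusted p = 0.257). Kif4, a chromosome-bound kinesin, was below the filter, at 4.77, 4.81, 4.74 and 4.54 in WT and 4.24, 4.24, 4.37 and 4.52 in KO, without overlap, in dim signals. Each of replicates 1 to 3 of either genotype was needed for the call of Kif11 (highest adjusted p 0.0767 without 1 of them).

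Cytokinesis genes included the lowest p of the list. Kif23, the kinesin of the centralspindlin complex at the spindle midzone, stood at 8.67, 8.98, 8.72 and 8.75 in WT (mean 8.78 ± 0.138 SD, n = 4) and at 8.23, 8.18, 8.21 and 8.49 in KO (mean 8.28 ± 0.142 SD, n = 4). It fell 1.42-fold (-0.50 ± 0.0874 SE, adjusted p = 0.00714), the genotypes did not overlap, and the call held without each single array (highest adjusted p 0.0253). Ect2, the exchange factor that switches on RhoA at the cleavage site, stood at 8.04, 8.16, 8.01 and 7.70 in WT and 7.62, 7.28, 7.46 and 7.66 in KO, again with no overlap, and fell 1.39-fold (adjusted p = 0.0233). The RhoA that ECT2 activates is a known substrate of geranylgeranyl transferase I. Racgap1, the partner of Kif23 in centralspindlin, differed by -0.13 (adjusted p = 0.416, interval -0.35 to 0.09), and its KO replicate 4 exceeded WT replicates 1, 3 and 4. Kif20a, Anln and Prc1, which act at the midzone and the contractile ring, differed by -0.47, -0.41 and -0.33 without a call (adjusted p = 0.0756, 0.116 and 0.161). Leaving out replicate 2 or 3 of either genotype ended the call of Ect2 (highest adjusted p 0.0612).

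**Figure D2:**
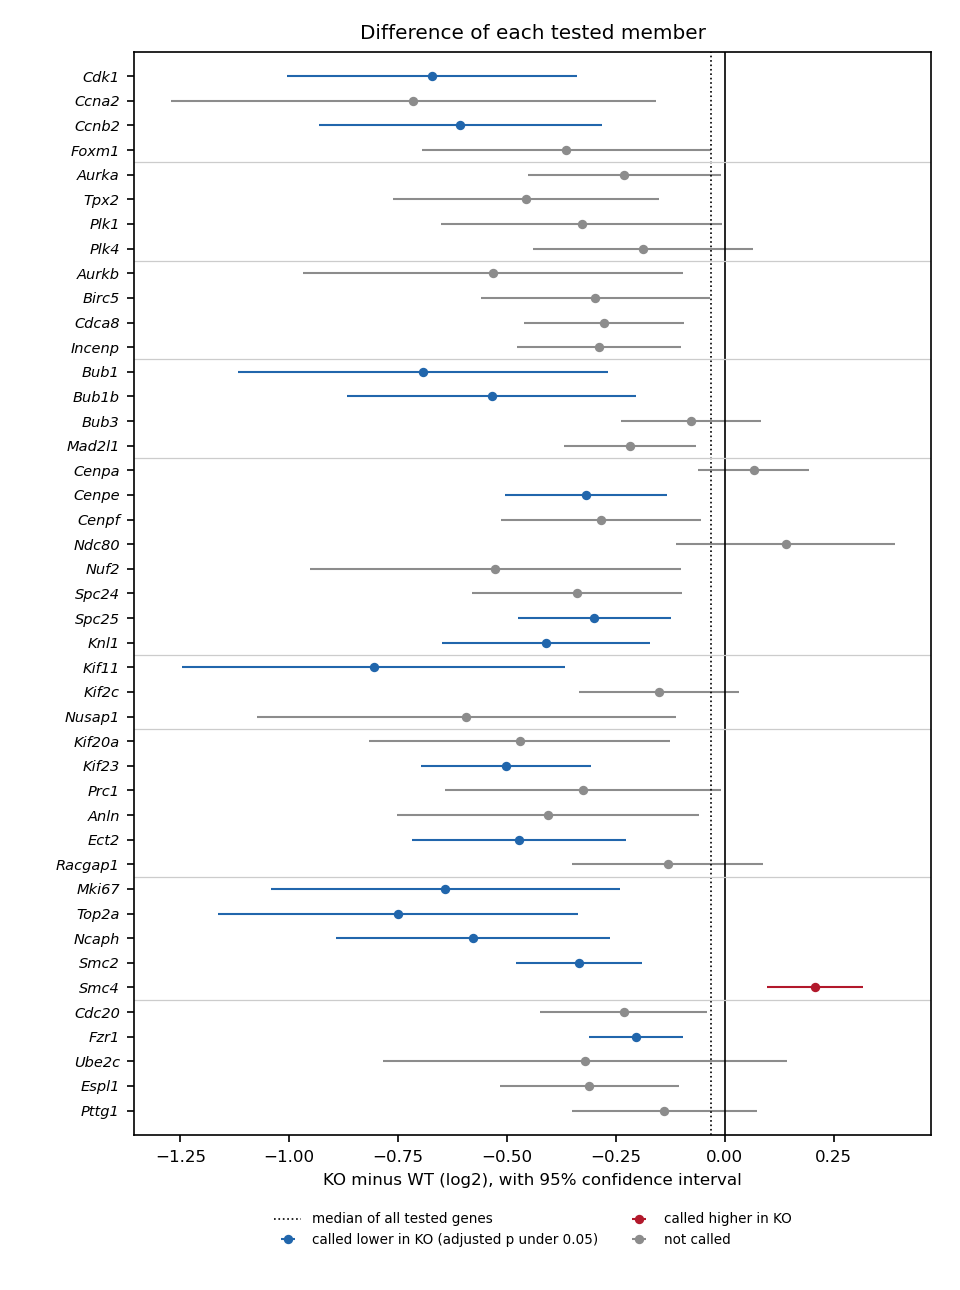
Difference between KO and WT (x axis, log2) with its 95% confidence interval for each of the 43 tested members, ordered by role. Blue points are called lower, the red point is called higher, grey points are not called, and the dotted line is the median of all tested genes at -0.03. All but Cenpa, Ndc80 and Smc4 lie below 0.

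Genes of chromosome structure changed in both directions. Condensin, a ring that folds mitotic chromosomes, is built on the SMC2 and SMC4 subunits. Smc2 stood at 8.19, 8.38, 8.24 and 8.38 in WT and 7.96, 7.86, 7.97 and 8.07 in KO and fell 1.26-fold (-0.33 ± 0.0650 SE, adjusted p = 0.0112), with no overlap and a call that held without each single array (highest 0.0339). Smc4 stood at 11.03, 11.01, 10.99 and 10.94 in WT and at 11.23, 11.15, 11.28 and 11.16 in KO and rose 1.16-fold (0.21 ± 0.0493 SE, adjusted p = 0.0247), again without overlap. The partners thus differed in opposite directions in all 4 KO arrays relative to the WT means. Smc4 lost its call when WT replicate 2, 3 or 4 or KO replicate 1 or 3 was left out (highest adjusted p 0.0696), with no intensity filter (0.0616) and with arrays centred over all probe sets (0.0501), while its sign stayed positive in every alternative tried. Ncaph, a regulatory subunit of condensin I, stood at 7.19, 7.54, 7.46 and 7.09 in WT and 6.64, 6.46, 6.76 and 7.10 in KO and fell 1.49-fold (-0.58, adjusted p = 0.0278). Top2a, the topoisomerase that untangles sister DNA, stood at 8.75, 8.96, 8.86 and 8.19 in WT and 7.85, 7.71, 7.81 and 8.39 in KO and fell 1.68-fold (-0.75, adjusted p = 0.0286). Mki67, the Ki-67 protein coating mitotic chromosomes and a common marker of cycling cells, stood at 9.08, 9.16, 9.06 and 8.46 in WT and 8.13, 8.04, 8.28 and 8.73 in KO and fell 1.56-fold (-0.64, adjusted p = 0.0437). In these 3 genes KO replicates 1 to 3 lay below all WT arrays, while KO replicate 4 lay above WT replicate 4. Top2a and Mki67 lost their calls when 1 of replicates 1 to 3 of either genotype was left out (highest adjusted p 0.0753 and 0.113), and so did Ncaph except without WT replicate 1 (highest 0.0747). Mki67 also lost its call with arrays centred over tested genes (0.0573) and after a further quantile normalization (0.0561).

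The anaphase-promoting complex (APC/C) marks cyclins and securin for destruction and so ends mitosis. Fzr1, which encodes the CDH1 activator that also keeps resting cells out of the cycle, stood at 9.17, 9.27, 9.21 and 9.22 in WT and 9.07, 8.96, 8.99 and 9.05 in KO, a 1.15-fold fall without overlap (-0.20 ± 0.0487 SE, adjusted p = 0.0256). Espl1, the separase that cuts cohesin, stood at 6.48, 6.53, 6.55 and 6.26 in WT and 6.13, 5.92, 6.29 and 6.24 in KO, where KO replicate 3 overlapped WT replicate 4 (adjusted p = 0.0534). Cdc20, the mitotic activator, and Ube2c, the conjugating enzyme of the complex, differed by -0.23 and -0.32 (adjusted p = 0.108 and 0.344), and the interval of Ube2c was wide, -0.78 to 0.14. Pttg1, the securin, differed by -0.14 (adjusted p = 0.372). Fzr1 lost its call without replicate 2 or 3 of either genotype (highest adjusted p 0.0716) and with arrays centred over tested genes (0.0509).

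Arrays of the same genotype differed in these genes, and for most members they differed in the same order. The median SD of a member was 0.198 in WT and 0.191 in KO, beside 0.0953 and 0.0857 over all genes tested. WT replicate 4 was the lowest WT array in 35 of the 43 members (81.4%, against 23.6% of all genes), and WT replicate 2 was the highest in 30 (69.8%, against 29.5%). Among KO arrays, replicate 4 was the highest in 34 members (79.1%, against 27.6%) and replicate 2 the lowest in 32 (74.4%, against 37.1%). Relative to the WT mean, the median member stood at 0.01, 0.20, 0.05 and -0.23 in WT replicates 1 to 4 and at -0.37, -0.56, -0.34 and -0.16 in KO replicates 1 to 4. Over all genes tested, WT replicate 4 correlated with KO replicate 4 at a Pearson r of 0.989. With the other WT arrays its r was 0.990 to 0.993, and that of KO replicate 4 with the other KO arrays was 0.993 to 0.995. In the medians of the members, WT replicate 4 and KO replicate 4 lay closer to each other than to the other arrays of their own genotype. The median of KO replicate 4 lay above that of WT replicate 4.

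**Figure D3:**
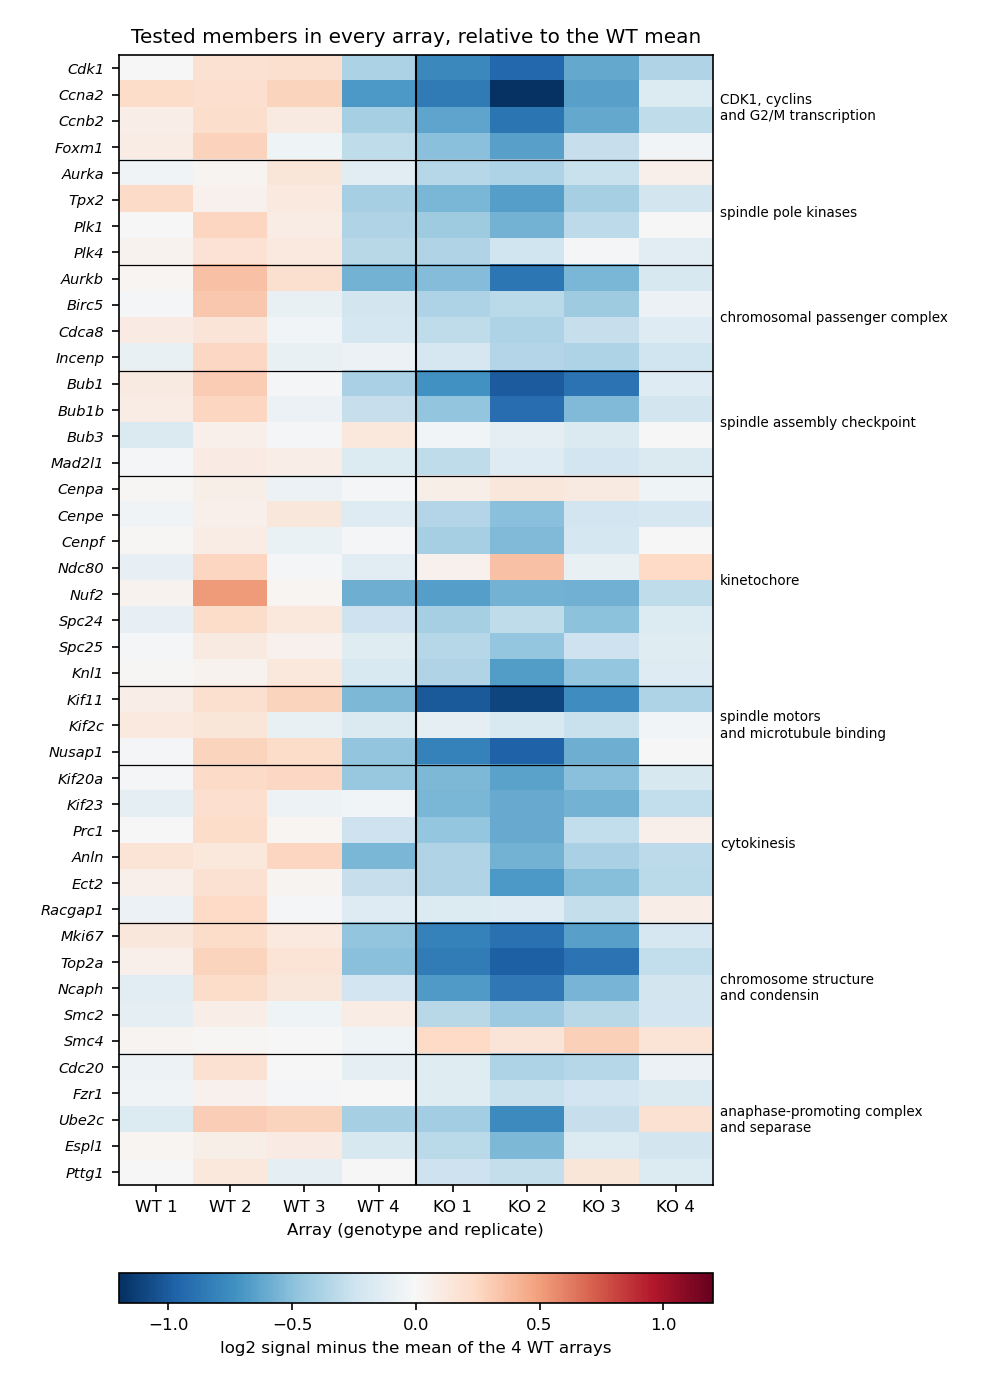
Log2 signal of each of the 43 tested members (rows, grouped by role) in each of the 8 arrays (columns), as the difference from the mean of the 4 WT arrays (colour, blue lower and red higher). KO replicates 1 to 3 are blue in most rows, KO replicate 4 is paler, WT replicate 4 is the bluest WT column, and Smc4 runs red across all KO arrays.

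The same pattern appears when each KO array is set against all WT arrays. KO replicates 1 and 2 each lay below every WT array in 36 of the 43 members (83.7%, against 30.1% and 38.3% of all genes), and KO replicate 3 did so in 30 (69.8%, against 31.2%). KO replicate 4 did so in 10 (23.3%, against 31.4%). It lay below the WT mean in 35 members and below WT replicate 4 in 12.

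A further list of 64 mitotic genes, none of them among the 48, was set beside them. Of its 42 tested genes 15 were called lower (35.7%, against 8.53% of all genes) and 0 higher (limma, also 0 at an unadjusted p under 0.05), and their median difference was -0.30. Cks1b, a small CDK-binding protein, fell 1.50-fold (WT 8.62, 8.81, 8.62 and 8.88, KO 8.06, 8.13, 8.17 and 8.22, adjusted p = 0.00137). Ncapd2 and Ncapg2, subunits of condensin I and II, fell 1.42-fold and 1.66-fold (adjusted p = 0.00160 and 0.00600), in the direction of Smc2 and Ncaph and opposite to Smc4. Arhgap11a, a RhoA-directed GTPase-activating protein of cytokinesis, fell 1.38-fold (adjusted p = 0.00765). These 4 calls held without each single array (highest adjusted p 0.0266). The count of 15 became 8, 8, 9 and 26 when WT replicate 1, 2, 3 or 4 was left out, and 7, 9, 10 and 16 when KO replicate 1, 2, 3 or 4 was. Over all genes tested the share called lower in those fits ran from 4.26% to 8.16%. In this list, too, WT replicate 4 was the lowest WT array (30 of 42 genes) and KO replicate 4 the highest KO array (27 of 42).

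Genes that control entry into mitosis included called falls and called rises. WEE1 adds the phosphates that hold CDK1 inactive and the CDC25 phosphatases remove them. Wee1 stood at 6.41, 6.96, 6.79 and 6.63 in WT and 5.73, 5.92, 6.00 and 6.21 in KO, a 1.66-fold fall (adjusted p = 0.00728), and Cdc25a fell 1.34-fold (adjusted p = 0.00299). Cdc25b rose 3.18-fold, from 8.09, 8.16, 8.02 and 8.03 in WT to 9.73, 9.82, 9.51 and 9.93 in KO (adjusted p = 8.46e-06). Cdc14b, a phosphatase that opposes CDK1, stood at 7.54, 7.84, 7.80 and 7.46 in WT and at 8.74, 8.78, 8.77 and 8.89 in KO and rose 2.19-fold (adjusted p = 0.000110). All 4 genes were separated between the genotypes in every array, KO replicate 4 included, and their calls held without each single array. Of the 11 tested genes of this list 3 were called lower (27.3%, against 8.53% of all genes) and 2 higher (18.2%, against 4.45%), with a median of -0.06, and the remaining fall was that of Mastl, the Greatwall kinase, which fell 1.40-fold with overlap (adjusted p = 0.0243). Only 2 falls were called when 1 of replicates 1 to 3 of either genotype was left out.

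Lists of mitotic machinery that also serves cells outside mitosis were short, and with 8.53% of all genes called lower and 4.45% called higher their counts of 0 lay near the background. Of 14 core subunits of the APC/C none was called (limma, 0 at an unadjusted p under 0.05), with a median of -0.06 and differences from -0.14 to 0.13. Those with the lowest p were Cdc26, Anapc7, Anapc11 and Anapc13, at -0.13, -0.11, 0.13 and -0.10. Of 10 genes of cohesin, the ring that holds sister chromatids together, and its loaders none was called either (limma, 0 at an unadjusted p under 0.05), with differences from -0.07 to 0.08. Mau2, Pds5b, Smc1a and Rad21 stood at 0.08, -0.06, -0.07 and -0.05. These counts of 0 recurred in all 22 alternatives.

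Of 12 genes of the DREAM and MuvB complexes and the pocket proteins 3 were called lower (25%, against 8.53% of all genes) and 0 higher (against 4.45%; limma, none higher at an unadjusted p under 0.05). Tfdp1, the DP1 partner of E2F factors, fell 1.32-fold from 9.58, 9.69, 9.55 and 9.56 in WT to 9.10, 9.12, 9.23 and 9.34 in KO (adjusted p = 0.00531), and this call held without each single array. Tfdp2 and Rbbp4, a histone-binding subunit of MuvB, fell 1.19-fold and 1.15-fold (adjusted p = 0.0226 and 0.0227). E2f5 differed by -0.12 (adjusted p = 0.167). Tfdp2 lost its call when WT replicate 2 or 3 or KO replicate 1, 3 or 4 was left out (highest adjusted p 0.0628), Rbbp4 when WT replicate 3 or KO replicate 1 or 3 was (highest 0.0631), and both with arrays centred over tested genes (0.0512 and 0.102), where 1 of the 12 was called lower, near the 4.73% of all genes under that scaling.

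**Figure D4:**
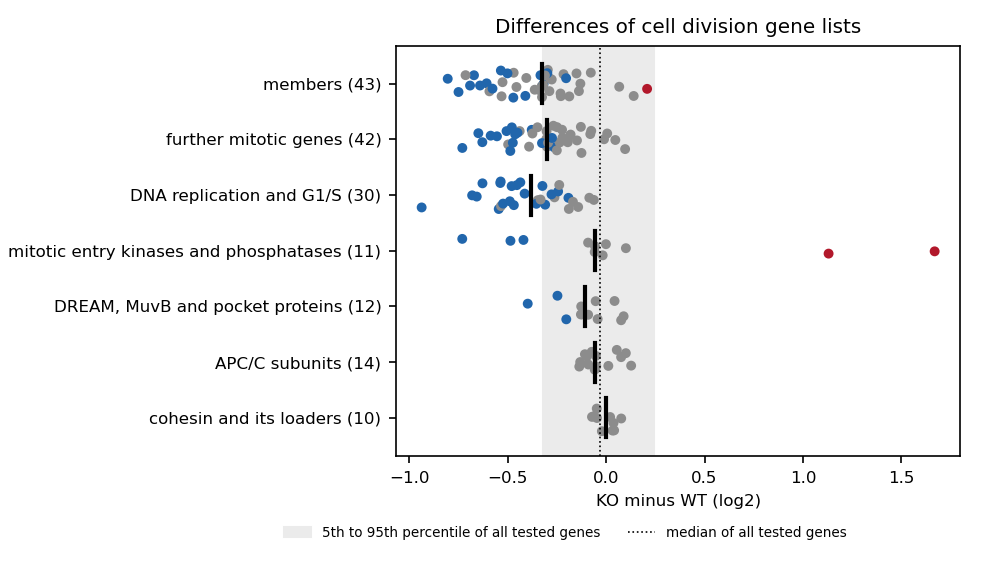
Differences between KO and WT (x axis, log2) of the tested genes of 7 lists (rows, with the number of genes), 1 point per gene, blue where called lower, red where called higher and grey where not called. Black bars are list medians, the shaded band runs from the 5th to the 95th percentile of all tested genes (-0.32 to 0.25), and the medians of the members, the further mitotic genes and the replication genes lie at -0.33, -0.30 and -0.38 while those of the APC/C subunits and cohesin lie at -0.06 and close to 0.

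The genes of DNA replication and the G1/S transition, which act before mitosis, were set beside the mitotic genes. Of 30 tested 20 were called lower (66.7%, against 8.53% of all genes), led by Mcm2, Dtl, Rrm1 and Mcm5, with a median of -0.38. None was called higher (limma, 0 also at an unadjusted p under 0.05), against 4.45% of all genes. The count of 20 became 18, 14, 15 and 24 when WT replicate 1, 2, 3 or 4 was left out, and 15, 16, 16 and 18 when KO replicate 1, 2, 3 or 4 was. In 22 of them (73.3%) the genotypes did not overlap and KO was lower, against 13.5% of all genes. The median replication gene stood at -0.37, -0.41, -0.39 and -0.40 from the WT mean in KO replicates 1 to 4, so that KO replicate 4 lay with the other KO arrays. In KO replicate 4, 27 of 30 of these genes lay below every WT array, against 31.4% of all genes. For the mitotic genes this held in 10 of 43. Among WT arrays, as for the mitotic genes, replicate 4 was the lowest in 23 of 30 replication genes (76.7%, against 23.6% of all genes). WT replicate 2 was the highest in 14 (46.7%, against 29.5%). The spread of replication genes among KO arrays was smaller, with a median SD of 0.0898 against 0.191 for the mitotic genes. The difference between the lists in KO replicate 4 rests on 1 array and was not tested.

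**Figure D5:**
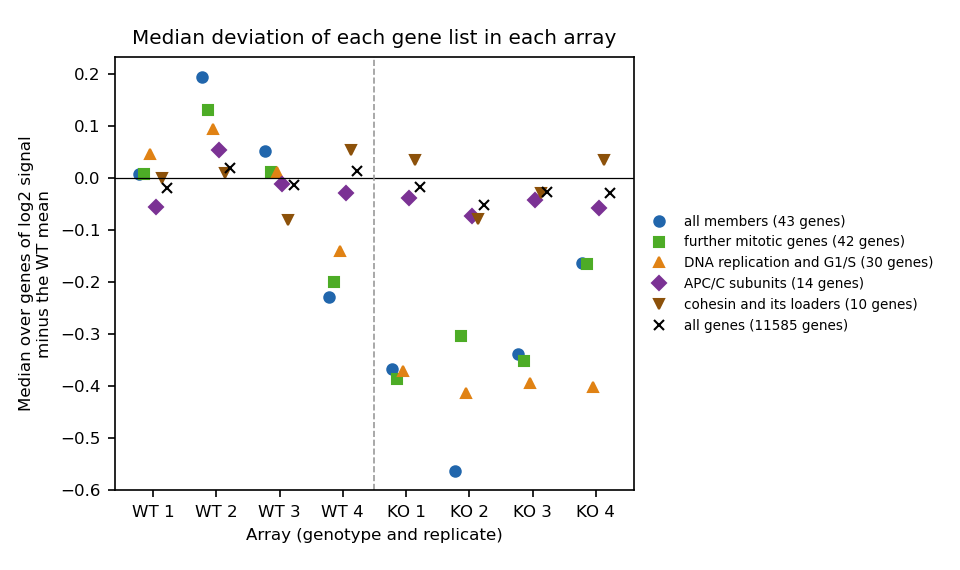
Median over the genes of each list of the log2 signal minus the WT mean (y axis) in each of the 8 arrays (x axis). The lists are the members, the further mitotic genes, the replication genes, the APC/C subunits, cohesin with its loaders, and all tested genes. In KO replicate 4 the replication genes stand at -0.40, as in the other KO arrays, while the members stand at -0.16, above WT replicate 4 at -0.23, and cohesin and APC/C genes stay near 0 throughout.

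Other measures that differed between these arrays were looked at beside the mitotic genes. The mean level of 5 measured double-positive thymocyte markers, a stage with dividing precursors, spanned 7.99 to 8.31 over the WT arrays and 7.62 to 7.97 over the KO arrays. It was highest in WT replicate 2 and lowest in KO replicate 2, as for the mitotic genes. At the other ends the order differed from that of the mitotic genes. WT replicate 1 was the lowest WT array, with WT replicate 4 level to 2 decimals, and KO replicate 3 was the highest KO array. All 5 passed the intensity filter and 1, Cd8a, was called lower (adjusted p = 0.0354), a call that was lost when WT replicate 2 or 3 or KO replicate 2 or 4 was left out (highest 0.0893). In KO replicate 4 this mean was 7.78, below all WT arrays. Markers of innate-like T cells averaged 5.26 to 5.76 over the WT arrays, highest in WT replicate 4, and 5.07 to 5.19 over the KO arrays, with Il17a and Klrb1c below the filter and Zbtb16 called lower (adjusted p = 0.0453, highest 0.106 with 1 array left out). The mean of 6 double-negative and immature thymocyte markers lay between 7.66 and 7.80 in WT, highest in WT replicate 4, and between 7.58 and 7.72 in KO, with Hes1 below the filter, Kit called lower and Dtx1 called higher. Heat-shock genes averaged 6.86, 7.52, 8.61 and 8.10 in WT replicates 1 to 4 and 9.81, 9.31, 6.51 and 8.81 in KO replicates 1 to 4, so that KO replicate 3, low in mitotic genes, was the lowest here. With the level of Hspa1a and Hspa1b as a covariate 2 members were called lower (4.65%), their median difference was -0.30, and 4.52% of all genes were called lower. The part of these cell types and of stress in the result was not tested.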

How the data were processed

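Amplified, biotin-labelled cDNA from sorted CD4SP thymocytes was hybridised to mouse gene-level arrays, per the labels' protocols. The authors deposited log2 signals from RMA, which quantile-normalizes arrays and summarises probes, and the submitters' processing notes name Affymetrix Expression Console 1.1. Their genome build and filters were not given in the sources used here. The table held 41345 probe sets, with array medians from 5.52 to 5.59. The number of arrays limits the precision, and dim signals understate differences.

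A platform annotation, which can be old, named 23521 probe sets with 1 symbol, standing for 22180 genes. A gene was represented by its brightest probe set over all arrays. Genes with a mean of at least 5.56, the median of all probe sets, were tested (11585). The comparison of KO and WT used limma 3.58.1 (R 4.3.3) with genotype as the only term. On simulated data of 11585 genes the fit called 81% of changes of 0.5 log2. Those changes were put on genes drawn from all tested, with noise independent between genes. The members spread more (median WT SD 0.198, against 0.0953 over all genes) and in a shared order, so the 81% does not apply to them. Replicates were numbered in deposit order and pair no samples.

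Members, roles and lists were chosen with earlier results of these data known. Values in every array are given for the 2 members of each role with the lowest p, for untested members and for those higher in KO. Of other lists up to 4 genes are named, called ones first. Of marker lists only called or level-setting genes are named, and erythroid and regulatory T cell markers had 1 call each, Tfrc and Tnfrsf18, both lower. Tfrc was the only tested gene among 3 measured of the erythroid list, with Epor and Klf1 below the filter. Alternatives were other filters, scalings, priors, thresholds and covariates and leaving arrays out. Centring over all probe sets was added after the data were seen. Protein sequences were not used here.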

Additional observations from a re-analysis of the deposited data

Results flagged for a closer look

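In 7 of 148 groups of 4 arrays examined (74 genes in each genotype) 1 array lay far from the other 3 by Dixon's test, which chance alone gives in about 5% of groups. In 3 mitotic genes this was WT replicate 4, at 7.64 for Ccna2 (other WT arrays 8.53 to 8.59), 5.62 for Anln (6.30 to 6.42) and 8.46 for Mki67 (9.06 to 9.16). The same array stood at 7.19 for Kit, above the other WT arrays (6.87 to 6.91). Incenp stood at 7.36 in WT replicate 2 (others 7.02 to 7.04), Tfdp2 at 7.93 in WT replicate 1 (others 8.10 to 8.13) and Pds5b at 10.26 in KO replicate 4 (others 10.14 to 10.16).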

How the results depend on the processing

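No paired analysis was possible because the labels give no replicate numbers. The median difference of the members stayed between -0.44 and -0.22 in every alternative tried, and no tested member changed sign in any of them. Of the 16 called members only Kif23 and Smc2 kept their call without each single array, and of the 27 others 14 were called without at least 1 array. The count of members called lower, 15 with all arrays, ranged from 2 to 26 with single arrays left out. It was 22 with limma's array weights (51.2% of members, against 9.12% of all genes). With a filter at a mean log2 of at least 6 it was 17 (41.5% against 9.63%). It was 16 with all probe sets of a gene averaged (37.2% against 8.36%), and also with an intensity trend and robust prior (37.2% against 10%). It was 9 with no intensity filter (20% of members, against 2.51% of all genes). With the sample number of the titles as a covariate it was also 9 (20.9% against 7.86%). At an adjusted p under 0.01 it was 1 (Kif23), and the members' 2.33% was near the 2.07% of all genes. With Hspa1a and Hspa1b as covariate it was 2, and 4.65% was again near the 4.52% of all genes. It was 0 when KO replicates 1 and 2, or WT replicates 2 and 3, were left out (against 1.05% and 1.25% of all genes). The count of members called higher, 1 (Smc4), ranged from 0 to 1 with single arrays left out and was 0 with no intensity filter, at an adjusted p under 0.01, at a fold of at least 1.2, when either pair of arrays was left out, and with arrays centred over all probe sets. The further mitotic genes called lower, 15, ranged from 7 to 26 with single arrays left out and were 4 at an adjusted p under 0.01, 10 with the sample number, 8 with the Hspa1 covariate, 2 when KO replicates 1 and 2 were left out and 3 when WT replicates 2 and 3 were. Rad21 stood at 0.00038 with arrays centred over tested genes, opposite in sign to the main value. A stricter threshold and a fold minimum can only lower these counts, and for the other settings the cause was not tested.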
